A study of Mus musculus with 6 samples.

Results

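The genes Avp, Cartpt and Pth2 each encode the precursor of a secreted neuropeptide, and they were examined in mature olfactory sensory neurons (OSNs) of the mouse main olfactory epithelium. They are 3 of the 24564 genes in the count tables and were taken by symbol, with their behaviour in these data already known. A mature OSN was a cell with at least 10 unique molecular identifiers (UMIs) of Omp, more Omp than Gap43 and fewer than 5 Cyp2g1 UMIs, and 5180 such cells from 6 libraries entered the counts below. Each library was a single-cell suspension of 1 sample. The 2 swap libraries carry Cbx*/* together with a Cre allele, so that Cbx5 (HP1α) replaces Cbx1 (HP1β) in the neuronal lineages that have expressed Cre. The 2 control libraries differ from each other by label: control 1 is WT with the Cre allele and control 2 is Cbx*/* without it. The tetOP2 library is gg8-tTA; tetOP2iresGFP, in which the gg8-tTA driver expresses the Olfr17 (P2) receptor from a transgene in OSNs, and the gg8-tTA library carries the driver alone. The labels give no age or sex. The study's methods speak of biological replicates, and neither they nor the labels say which animals stood behind a library.

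Avp encodes vasopressin with its neurophysin carrier, the peptide hormone best known from magnocellular neurons of the hypothalamus. Cartpt encodes the cocaine- and amphetamine-regulated transcript peptides, which are found in many central and peripheral neurons. Pth2 encodes TIP39, a peptide ligand of the parathyroid hormone receptor Pth2r. Such precursors are cut by convertases inside dense-core vesicles and released on activity. An OSN expresses 1 olfactory receptor (OR) gene out of a very large family, and ORs are used in overlapping zones that run from the dorsal to the ventral epithelium, so that the receptor of a cell also tells roughly where the cell lay.

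In the RefSeq annotation of GRCm38.p6, the same assembly as the mm10 build named in the labels, Avp lies on chromosome 2 from 130580620 to 130582588, only 3565 bp from the end of Oxt, the related oxytocin gene. Cartpt lies on chromosome 13 from 99898483 to 99910179 and Pth2 on chromosome 7 from 45179701 to 45181838. The 3 promoters are shown because the 3 genes divide the same cells in such different ways. Each runs 5′ to 3′ over 300 bases, from 250 before the start listed for that promoter to 50 after it. The windows are chr2:130582539-130582838 on the minus strand for Avp, chr13:99900634-99900933 on the minus strand for Cartpt and chr7:45180745-45181044 on the plus strand for Pth2. For Cartpt and Pth2 the window lies inside the gene range given above, so that the listed start is not the outer end of that range. Capitals mark matches to 6 motifs searched on both strands, namely the cAMP response element TGACGTCA, the TATA sequence TATAAA, the E-box CACGTG, the homeodomain cores TAATTG and TAATTA, and CCCNNGGG, the form of site bound by early B-cell factors.
Avp promoter: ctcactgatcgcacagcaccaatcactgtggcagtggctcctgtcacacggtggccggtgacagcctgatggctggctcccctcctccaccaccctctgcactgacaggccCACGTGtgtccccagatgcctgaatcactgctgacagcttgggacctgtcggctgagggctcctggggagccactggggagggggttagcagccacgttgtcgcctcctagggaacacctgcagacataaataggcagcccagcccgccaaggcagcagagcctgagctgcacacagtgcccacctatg
Cartpt promoter: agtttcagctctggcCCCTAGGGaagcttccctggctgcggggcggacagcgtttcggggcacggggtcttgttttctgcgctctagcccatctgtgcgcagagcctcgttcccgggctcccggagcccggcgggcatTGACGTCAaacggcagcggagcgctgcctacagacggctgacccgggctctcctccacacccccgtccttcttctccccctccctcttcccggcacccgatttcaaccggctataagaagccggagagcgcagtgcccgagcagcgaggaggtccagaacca
Pth2 promoter: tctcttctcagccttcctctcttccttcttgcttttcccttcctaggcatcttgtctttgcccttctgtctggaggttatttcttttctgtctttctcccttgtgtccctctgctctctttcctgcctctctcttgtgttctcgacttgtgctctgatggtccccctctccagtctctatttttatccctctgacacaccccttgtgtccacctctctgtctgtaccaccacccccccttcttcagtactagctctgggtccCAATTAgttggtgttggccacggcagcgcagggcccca
The Cartpt window held TGACGTCA 112 bases before the start, a motif present in 1.79% of 32851 promoters of this length, and 1 match to CCCNNGGG, present in 13.7%. The Avp window held CACGTG 139 bases before the start, present in 7.15% of promoters. The Pth2 window held TAATTG, on the minus strand and 12 bases past the listed start, and 8% of promoters hold that motif. A match is a description of these letters only, and no 2 of the windows shared a motif.

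The 4 swap and control libraries held between 58498968 and 63277934 UMIs each, and the tetOP2 and gg8-tTA libraries 32005196 and 35298494. The labels of the series speak of sorted cells, but sustentacular, basal and immune cells were present in every library, and these cells served as background. In mature OSNs, Cbx1 averaged 0.00978 and 0.0129 UMIs of 5000 in swap 1 and 2 and between 0.176 and 0.77 in the other libraries, and Cbx5 averaged 0.374 and 0.431 against 0.0754 to 0.143. Olfr17 averaged 26 UMIs in tetOP2 and at most 0.165 elsewhere, so that the targeted genes followed the labels. The mature OSN gate was checked with 8 marker genes of mature OSNs, of which 7 were detected in at least 20% of gated cells in every library. Of 8 immature OSN markers, 5 also reached 20% in every library. Their mean levels summed to between 6.84 and 13.1 UMIs of 5000 in the gated cells, against 45.7 to 63.9 in immature OSNs, so that the gate did not exclude some immature character. None of 6 sustentacular markers was detected in 20% in every library, but Cbr2 was found in 9.33% to 61.4% and Sec14l3 in 7.3% to 26.1%. Cbr2 averaged 0.989 and 1.08 UMIs of 5000 in tetOP2 and gg8-tTA against 0.14 to 0.189 in the other libraries, and the part of such UMIs in the results on these libraries was not tested. Any pair of libraries shared between 0 and 20 cell barcodes. So that depth did not set the shares, every cell was thinned to 5000 UMIs, which left out 3 to 36 shallower mature OSNs per library. A gene was called on in a cell at 3 or more UMIs of 5000. Intervals are exact Clopper-Pearson 95% intervals and cover counting error only. Where a count of 0 is said to allow a share, that share is 3 divided by the number of cells. This limit lies below the upper end of the exact interval.

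Avp was silent in almost every mature OSN and on in a few, at levels from low to very high. The share of Avp-on cells was 0.978% in swap 1 (7 of 716 cells), 0.322% in swap 2 (3 of 932), 0.78% in control 1 (8 of 1025), 1.77% in control 2 (21 of 1185), 0.152% in tetOP2 (1 of 659) and 0.603% in gg8-tTA (4 of 663). The 44 Avp-on cells held between 80.5% and 98.1% of all Avp UMIs of the mature OSNs of their library. Before thinning they carried from 3 to 1608 Avp UMIs, with a median of 32.5. The cell with 1608 was 1 neuron of control 1 that also carried 63 UMIs of Olfr1346. That single neuron supplied 74.5% of the Avp UMIs of its library, and in the other libraries the highest cell supplied between 14.7% and 92.9%, so that a summed level of Avp rested on very few cells.

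Cartpt was on in most mature OSNs, over a wide and continuous range of levels. Its on share was 77.4% in swap 1, 71.9% in swap 2, 74.5% in control 1, 72.9% in control 2, 71.3% in tetOP2 and 79% in gg8-tTA. The mean level was 10.4 UMIs of 5000 in swap 1, 7.26 in swap 2, 8.69 in control 1, 8.09 in control 2, 8.63 in tetOP2 and 10.1 in gg8-tTA. The share with at least 1 Cartpt UMI ran from 86.8% to 91.4%. Cells near the threshold, with 2 to 4 UMIs of 5000, made up 15.4% to 20.6%. The highest cell, a neuron of control 1, carried 1609 Cartpt UMIs before thinning and held 7.29% of the Cartpt UMIs of its library, so that Cartpt, unlike Avp, was spread over many cells.

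Pth2 was a low transcript that many cells carried in small amounts. It was on in 2.93% of mature OSNs of swap 1 (21 cells), 5.04% of swap 2 (47), 6.24% of control 1 (64), 7.93% of control 2 (94), 7.28% of tetOP2 (48) and 4.52% of gg8-tTA (30). At least 1 Pth2 UMI was seen in 20.7% to 41.9% of cells, and no thinned cell reached 10. The Pth2-on cells held only 18.6% to 33.2% of the Pth2 UMIs of a library, against the concentration of Avp in its few cells. Without thinning, which lets deeper cells pass, the Pth2-on share was 9.3% to 27.3%.

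**Figure D1:**
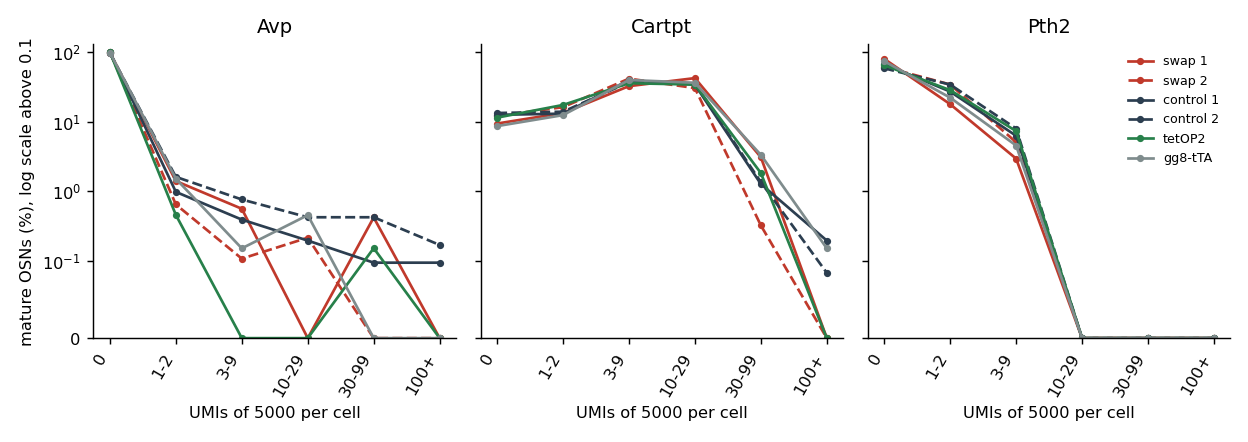
Share of mature OSNs (%, log scale above 0.1) in each bin of UMIs of 5000 for Avp, Cartpt and Pth2, with 1 line per library. Avp has a long thin tail that reaches past 100 UMIs, Cartpt peaks between 3 and 29 UMIs, and Pth2 ends below 10 UMIs in all 6 libraries.

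Among non-neuronal cells the 3 genes were close to background. Among 2450 sustentacular cells, which should lack them, 0 were Avp-on, 2 were Cartpt-on and 0 were Pth2-on, at median depths of 12275 to 18195 UMIs before thinning against 11271 to 12718 in mature OSNs. A count of 0 in 2450 cells allows a share of up to 0.122%. Stray Cartpt UMIs were common, since 1.54% to 14.6% of sustentacular cells held at least 1, and for this reason single UMIs were not read as expression. No Avp-on cell was found among 998 horizontal basal cells, 355 globose basal cells, 304 microvillar cells or 207 macrophages, and no Pth2-on cell either. Of 4321 cells that met no gate, 5 were Avp-on, 162 Cartpt-on and 6 Pth2-on.

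Immature OSNs, which carry Gap43 and have only begun to express a receptor, held the 3 genes at lower shares. No Avp-on cell was found among 2565 immature OSNs, which allows a share of up to 0.117%. Cartpt was on in 19.3% of immature OSNs in swap 1, 13.3% in swap 2, 14.9% in control 1, 17.4% in control 2, 8.14% in tetOP2 and 9.32% in gg8-tTA. Pth2 was on in 1 immature OSN, in swap 1. The mean difference between mature and immature OSNs was 0.768 ± 0.576 percentage points for Avp, 60.8 ± 5.03 for Cartpt and 5.63 ± 1.90 for Pth2 (SD over 6 libraries). Each difference was positive in 6 of 6 libraries. These values carry no test, because the genes were picked with their expression in mature OSNs known.

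**Figure D2:**
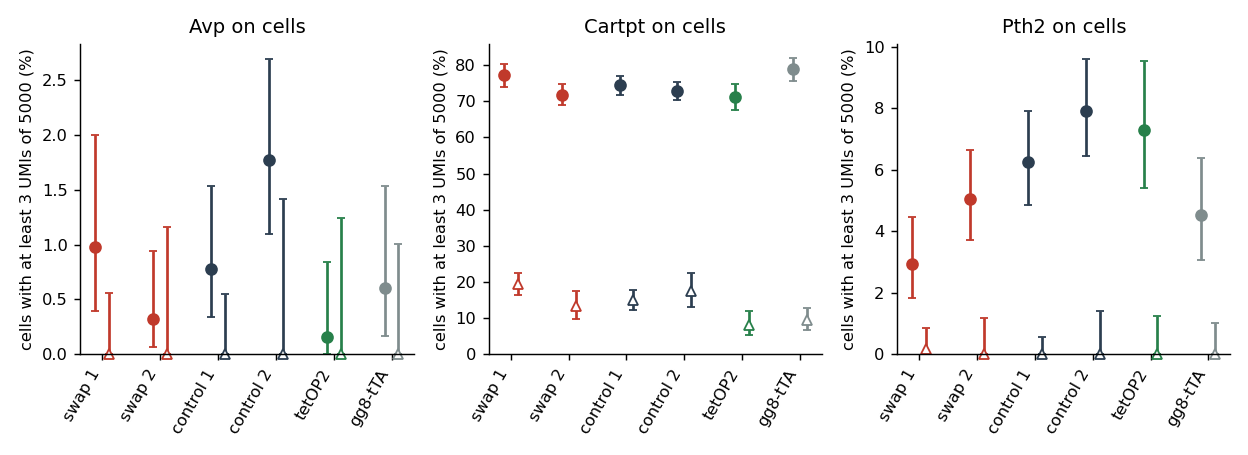
On shares (% of cells with at least 3 UMIs of 5000) by library for mature OSNs (filled circles) and immature OSNs (open triangles), with exact 95% intervals for counting error. Cartpt separates the stages by more than 55 percentage points in every library, and Pth2 is lower in both swap libraries than in both controls.

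The on states of the genes overlapped unevenly. Of the 44 Avp-on cells, 15 were also Cartpt-on, where independence within each library would give 32.7, and Cartpt was on in 34.1% of Avp-on cells against 74.6% of the others. In control libraries 7 of 29 Avp-on cells were Cartpt-on and 17 held no Cartpt UMI at all before thinning. By library, 5 of 7 Avp-on cells were also Cartpt-on in swap 1, where 5.42 would be given by independence, 1 of 3 in swap 2, 2 of 8 in control 1, 5 of 21 in control 2, 0 of 1 in tetOP2 and 2 of 4 in gg8-tTA. The low overlap thus came mainly from the 2 control libraries. Only 1 cell was on for both Avp and Pth2, where 2.78 would be given by independence. Cartpt and Pth2 overlapped in 255 cells against 224 under independence, and Pth2 was on in 6.63% of Cartpt-on and 3.67% of Cartpt-off cells. The gg8-tTA library went the other way, with 4.2% of Cartpt-on and 5.76% of Cartpt-off cells. No cell was on for all 3 genes, and 1257 of 5180 cells (24.3%) were on for none. These counts were not tested because the genes were chosen for such patterns.

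The share of Cartpt-on cells differed widely between chosen receptors, where the chosen receptor is the OR with the most UMIs in a cell. In control 1, control 2 and gg8-tTA together, 180 receptors were chosen by at least 5 cells, 1284 cells in all. Of these cells 866 were Cartpt-on. Cartpt was on in every cell of 61 of the receptors and in no cell of 10, and 72 more receptors lay between 20% and 80%. With so high a base share, some receptors with few cells would have every cell on by counting alone, and how many was not tested. Olfr222 and Olfr672 had 13 of 13 cells on each, with mean levels of 11.8 and 12.1 UMIs of 5000. Olfr1346 and Olfr729 had 0 of 10 cells on each, with mean levels of 0 and 0.1. The other receptors with no Cartpt-on cell were Olfr727, Olfr741, Olfr1507, Olfr1508, Olfr1414, Olfr1416, Olfr1195 and Olfr1260. The mean Cartpt level per receptor went together between libraries, with Spearman's rho from 0.58 to 0.92 over the 7 to 39 receptors that any pair of the 5 libraries other than tetOP2 had in common with at least 3 cells each. This is a description across receptors, which are not independent replicates.

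Avp-on cells were concentrated in a few receptors. The 5 receptors with the highest Avp-on share were Olfr1346 with 7 of 10 cells, Olfr513 with 3 of 5, Olfr741 with 5 of 9, Olfr729 with 5 of 10 and Olfr727 with 4 of 10. Together they supplied 24 of the 32 Avp-on cells with a receptor in the 3 libraries, from 44 cells that had chosen them. Of these, 22 of 37 were Avp-on in control 1 and 2 and 2 of 7 in gg8-tTA, while tetOP2 had 0 of 4. Spearman's rho of the Avp level per receptor was 0.59 between control 1 and control 2. With gg8-tTA it was 0.24 for control 1 and 0.38 for control 2, over 18 and 16 receptors. Of the 180 receptors, 171 had no Avp-on cell. Olfr1346 and Olfr513 lie on chromosome 7, and Olfr727, Olfr729 and Olfr741 within the same cluster on chromosome 14. Among the cells of these receptors Avp was never universal, and its level ranged from nothing to the 487 UMIs of 5000 seen in the highest Olfr1346 neuron. All of the 5 but Olfr513 had no Cartpt-on cell.

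**Figure D3:**
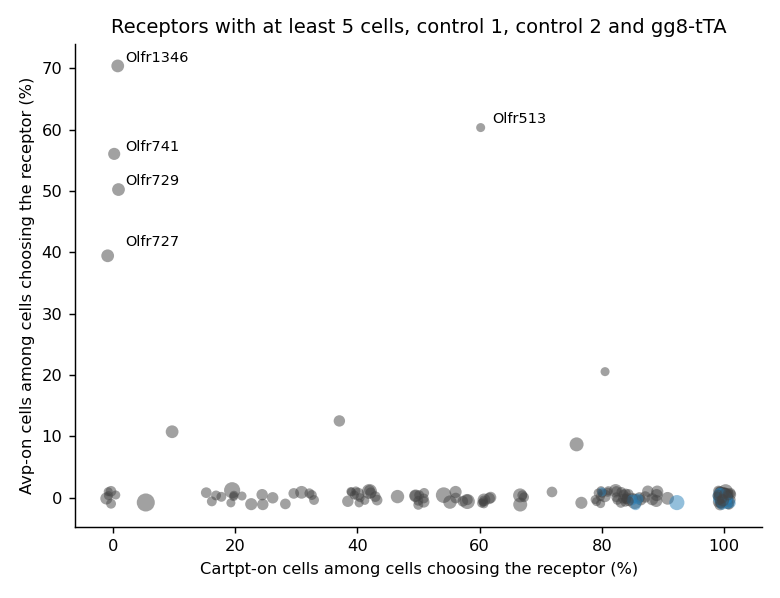
Share of Avp-on cells (%) against share of Cartpt-on cells (%) for each of 180 receptors chosen by at least 5 mature OSNs in control 1, control 2 and gg8-tTA together, with point area by number of cells, class I receptors in blue, and points shifted at random by up to 1.2 percentage points to separate them. Olfr1346, Olfr741, Olfr729 and Olfr727 stand at the upper left, with Avp-on cells and no Cartpt-on cell.

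Neighbouring genes could sit on opposite sides. Within the chromosome 14 cluster, Olfr728 at 50139702 to 50140637 had 4 of 10 cells Cartpt-on and none Avp-on. On either side of it, Olfr727 at 50126553 to 50127587 and Olfr729 at 50147901 to 50148872 had 4 of 10 and 5 of 10 cells Avp-on and none Cartpt-on. Further along the chromosome, Olfr1510, Olfr1511 and Olfr1512, between 52372110 and 52410927, had 14 of 14 cells Cartpt-on. After a gap of 39465 bp, Olfr1509, Olfr1508 and Olfr1507, between 52450393 and 52495695, had 0 of 19. Neither block held an Avp-on cell. These neighbours were singled out after their values were seen, and 3 to 10 cells stood behind each receptor.

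For Pth2 the counts per receptor were low. It was on in no cell of 123 of the 180 receptors, and the highest shares were 2 of 5 cells for Olfr1195 and Olfr1258 and 3 of 9 for Olfr116. Spearman's rho of its level per receptor between the same libraries ran from −0.10 to 0.47. The overall share was 6.52%, with a few cells per receptor. A dependence on the receptor was not tested, and these counts leave little room to see one.

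Class I receptors, the family used mainly in the dorsal epithelium, went with Cartpt. Cartpt was on in 97.4% of class I cells in swap 1, 85.9% in swap 2, 99.1% in control 1, 96.6% in control 2, 97.3% in tetOP2 and 96.2% in gg8-tTA, against 69.7% to 77% of class II cells. No class I cell was Avp-on in control 1 (0 of 106), control 2 (0 of 117), gg8-tTA (0 of 80) or tetOP2 (0 of 37), and 2 of 76 were in swap 1 and 1 of 99 in swap 2. Among class II cells the Avp-on share was 0.822%, 2.1%, 0.753% and 0.165% in the first 4 libraries and 0.858% and 0.254% in swap. The exact 95% intervals of the classes overlapped in all 6 libraries, but they cover counting error only and are no test. With 37 to 117 class I cells per library, a difference between the classes was not tested.

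Receptors were next placed along the dorsal to ventral axis by marker genes of the cells that chose them in other libraries. Nqo1, Acsm4, Robo2 and Sema3f served as dorsal and Ncam2, Nrp2, Nfia, Nfib and Nfix as ventral markers. For each library the receptors were divided into 4 equal bins. A bin held 105 receptors in swap, 64 or 65 in control 1, 51 in control 2 and 76 or 77 in gg8-tTA. The same bin thus held other receptors in swap than in the controls. From the most dorsal to the most ventral bin Cartpt was on in 100%, 91.2%, 68.8% and 38.3% of cells in control 1, in 96.7%, 86.2%, 61.4% and 24.4% in control 2 and in 97.2%, 91.8%, 75.5% and 33.8% in gg8-tTA. In swap 1 the shares were 98.6%, 87%, 66.7% and 19.5%, and in swap 2 they were 96.2%, 77.5%, 52% and 20.8%. Cartpt fell from bin to bin in all 5 libraries. For Avp, the most ventral bin of each library held 6 of 149 cells on in control 1, 13 of 119 in control 2 and 2 of 68 in gg8-tTA. It held 1 of 87 in swap 1 and 1 of 77 in swap 2. In swap 1 the second bin held more, with 3 of 115. Binned by their own markers into 3 equal bins, Avp-on cells numbered 0, 2 and 5 from dorsal to ventral in control 1, 1, 7 and 13 in control 2, 1, 0 and 3 in gg8-tTA, 1, 5 and 1 in swap 1 and 0, 1 and 2 in swap 2. Pth2 in those bins was on in 8.15%, 8.15% and 1.88% of cells in control 1 and 11%, 8.87% and 3.76% in control 2. It was on in 6.36%, 3.2% and 0% in swap 1 and 8.14%, 3.39% and 3.73% in swap 2. In gg8-tTA it did not fall, with 4.9%, 3.94% and 5.39%. The differences between bins and between libraries were not tested.

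In the tetOP2 library 378 mature OSNs had chosen the same receptor, Olfr17, and these cells could be compared among themselves. Cartpt was on in 69.6% of them (95% interval 64.7% to 74.2%), and 39 held no Cartpt UMI at all. Among the 9 Olfr17 cells of control 1, control 2 and gg8-tTA, 8 were Cartpt-on, and their level had an SD of 4.17 UMIs of 5000 against 8.44 in the Olfr17 cells of tetOP2. When the Olfr17 cells of tetOP2 were ranked by their own dorsal and ventral markers and divided into 3 equal bins, Cartpt was on in 98.4%, 73% and 37.3% from dorsal to ventral, with mean levels of 17, 6.13 and 3.43 UMIs of 5000. All cells with a receptor were ranked likewise within each other library, so that a bin need not cover the same marker range. From dorsal to ventral Cartpt was on in 97.5%, 84.7% and 56.4% in gg8-tTA. The shares were 98.7%, 78.4% and 43.8% in control 1 and 98.4%, 79.3% and 40.1% in control 2. The fall of Cartpt from dorsal to ventral was thus also present among cells with 1 receptor. Pth2 was on in 9.52% of the Olfr17 cells and in 4.53% of cells with other receptors of that library, with intervals of 6.76% to 12.9% and 2.36% to 7.78%. In the 3 bins of Olfr17 cells Pth2 was on in 13.5%, 10.3% and 4.76% from dorsal to ventral, which was not tested. No Olfr17 cell was Avp-on (0 of 378, 95% interval 0% to 0.971%). With 1 library per genotype these values have no replicate.

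**Figure D4:**
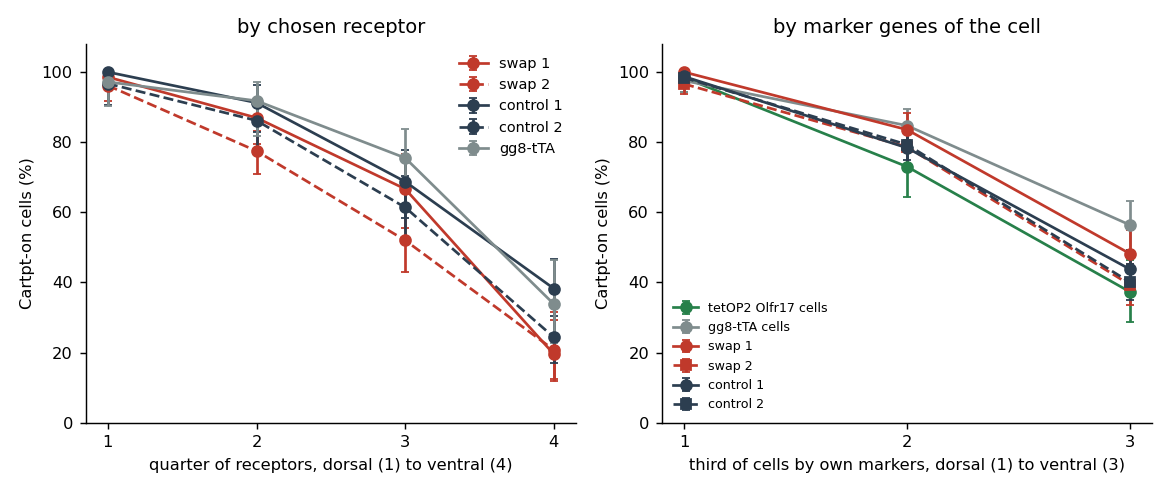
Share of Cartpt-on cells (%) from dorsal to ventral, with cells binned by the position of their chosen receptor in 4 equal bins of receptors (left) and by their own marker genes in 3 equal bins (right), where the tetOP2 line holds only cells with Olfr17. Bins were set within each library, so that a bin need not cover the same positions in another. Bars are exact 95% intervals for counting error, and every line falls from dorsal to ventral.

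The swap and control libraries were compared to see whether the exchange of HP1β for HP1α changed the 3 genes. With 2 libraries a group, the two-sided exact permutation test cannot give p below 0.333. The Avp-on share was 0.65 ± 0.464% in swap and 1.28 ± 0.701% in control (SD, n = 2), and the groups overlapped (difference −0.627 percentage points, exact permutation p = 0.667). The Cartpt-on share was 74.6 ± 3.88% and 73.7 ± 1.15%, a difference of 0.907 points that was smaller than the spread between the swap libraries (exact permutation p = 1). The Pth2-on share was 3.99 ± 1.49% in swap and 7.09 ± 1.19% in control (difference −3.10 points, exact permutation p = 0.333). The groups did not overlap for Pth2, but swap 2 at 5.04% and control 1 at 6.24% lay close together, and the gg8-tTA library at 4.52% lay within the swap range. The size of this difference moved with depth and threshold. It was −1.18 points after thinning to 3000 UMIs and −7.17 without thinning, where swap 2 at 21.6% lay above control 1 at 18% and the groups overlapped.

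Summed over all mature OSNs of a library, Avp stood at 62.9 and 13 CPM (counts scaled to a common library size by TMM) in swap 1 and 2 and at 176 and 110 in control 1 and 2. The log2 fold change, swap over control, was −1.92 ± 0.77 (SE). Cartpt stood at 1961 and 1418 CPM in swap and at 1797 and 1501 in control, with a log2 fold change of 0.04 ± 0.26. Pth2 stood at 58.8 and 118 CPM in swap and at 112 and 135 in control, with a log2 fold change of −0.49 ± 0.38. The adjusted p of the edgeR quasi-likelihood fit, by Benjamini and Hochberg's method over 12522 genes, was 1.00 for all 3. edgeR called 0% of them (adjusted p under 0.05, fold change past 0.58 on the log2 scale), with 345 at an unadjusted p below 0.05, while DESeq2 called 191 genes (1.53%) (0.519% higher and 1.01% lower), none of the 3 genes among them. Of the neuropeptide and secretory lists DESeq2 called 1 gene, Syt4, at a log2 fold change of −0.95 (DESeq2 adjusted p = 0.000686), for which the adjusted p of edgeR was 0.324. For Avp the value depended on 1 library: without swap 1 the log2 fold change was −3.45 (adjusted p = 0.0205), and over all alternatives the adjusted p ran from 0.0205 to 1.00. Without the highest Avp cell of each library it was −1.55.

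Since the swap libraries chose other receptors than the controls, each library's share was also set against the share expected from its receptors, taken from the same receptors in control 1, control 2 and gg8-tTA, leaving out the library itself. For Cartpt the receptors of the swap cells predicted 79% on in swap 1 and 84% in swap 2, against 64.5% in control 1 and 71.7% in control 2. What was observed in the same cells was 73% in swap 1, 69% in swap 2, 68.3% in control 1 and 64.1% in control 2. The expected share was thus higher in both swap libraries by a mean of 13.4 points (exact permutation p = 0.333), whereas observed minus expected was −6.01 and −15.0 points in swap 1 and 2 and 3.79 and −7.60 in control 1 and 2 (difference −8.61 points, p = 0.667 by the same exact test). For Pth2 the expectation was 8.37% and 7.82% in swap and 4.92% and 5.47% in control, and the observed shares were 2.35%, 3.83%, 7.62% and 4.78%. Observed minus expected was −6.03 and −4.0 points in swap and 2.70 and −0.686 in control (difference −6.02 points, exact permutation p = 0.333). Since a dependence of Pth2 on the receptor was not tested, this expectation rests on sparse counts and adds nothing to the comparison of shares above. For Avp the expectation was 1.28% and 0.756% in swap and 2.48% and 2.09% in control, and observed minus expected differed by −1.07 points between swap and control (exact permutation p = 1). The expectation covered 64.6% and 62% of swap and 42.5% and 37.5% of control cells with a receptor, so that a large part of the cells, above all in the controls, did not enter. Its reference held 420 receptors for each swap library but 257 for control 1 and 204 for control 2. Covered cells were Cartpt-on less often than all mature OSNs. The latter held 77.4% in swap 1, 71.9% in swap 2, 74.5% in control 1 and 72.9% in control 2. Swap and control values thus rest on differently selected cells, and the part of this in the gap was not tested. With the same reference for libraries of 1 number, the mean gap in the expected Cartpt share was 12.1 points.

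**Figure D5:**
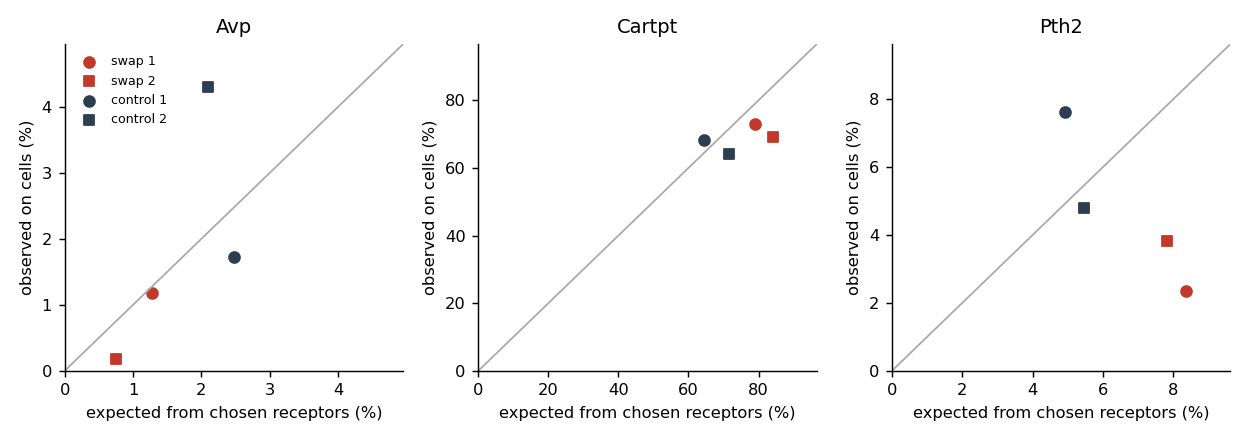
Observed share of on cells (%) against the share expected from the chosen receptors (%), for the 2 swap libraries (red) and 2 control libraries (dark blue), with circles for number 1 and squares for number 2 and a grey line for equality. For Cartpt swap 1, swap 2 and control 2 lie below the line, and the Pth2 expectation rests on sparse counts per receptor.

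The 5 receptors with the highest Avp-on share were looked up in the swap. In control libraries 37 cells had chosen Olfr1346, Olfr513, Olfr741, Olfr729 or Olfr727, and 22 of them (59.5%) were Avp-on. In swap libraries 0 of 1544 cells with a receptor had chosen any of them, which allows up to 0.194%, against 37 of 2074 in control. They could be named only because control 1, control 2 and gg8-tTA cells had chosen them, so that this contrast is a description and partly set by the choice. Avp-on cells were nevertheless present in both swap libraries. The 10 swap cells had chosen 7 other receptors, Olfr1105, Olfr1259, Olfr1414, Olfr211, Olfr557, Olfr613 and Olfr734, of which Olfr1105, Olfr613 and Olfr734 held 2 Avp-on cells each. Those 7 receptors were chosen by 41 swap cells, 10 of them Avp-on, and by 26 cells of control 1, control 2 and gg8-tTA, 1 of them Avp-on. The receptor itself was well covered in the swap Avp-on cells, with 13 to 87 UMIs (median 29.5), below the median of 104 in control Avp-on cells. These receptors were named because of their Avp-on cells, so that the shares are a description.

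To see what else marked the Avp-on cells, their UMIs were summed and set against cells with no Avp UMI, library by library, in swap 1, control 1 and control 2, which had at least 5 Avp-on cells each (36 cells in all). This comparison was added after the planned one, Avp-on alone against cells on for none of the 3, could be made in 1 library only. edgeR's quasi-likelihood test with library as a block called 563 of 10920 genes other than ORs (5.16%), 263 higher (2.41%) and 300 lower (2.75%). With DESeq2's size factors the split was 305 higher and 222 lower. Fewer genes were called without swap 1 (426), without control 1 (344) and without control 2 (232).

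The regulated secretory pathway packs and cuts peptide precursors. Of 24 genes on that list, 22 were tested and 7 were higher and 2 lower in Avp-on cells, with a median log2 fold change of 0.50 against −0.11 over all genes. Higher were Scg2 (3.95 ± 0.47, SE), Ptprn2 (3.64 ± 0.66), Ptprn (3.56 ± 0.27), Pcsk1n (2.49 ± 0.18), Pcsk2 (2.13 ± 0.25), Syt4 (2.04 ± 0.17) and Chgb (0.99 ± 0.19). These encode granins (Scg2, Chgb), dense-core vesicle membrane proteins (Ptprn, Ptprn2), the convertase Pcsk2, the granin-like convertase inhibitor proSAAS (Pcsk1n) and a synaptotagmin (Syt4). Chga, another granin, was lower at −0.72 ± 0.14, and so was Rab3b at −1.27 ± 0.25. The 9 adjusted p-values of edgeR lay at or below 2.49e-05. Of 13 cells that had chosen any of the 5 receptors but held no Avp UMI, 7 held Pcsk1n, 4 Ptprn and 1 Scg2. The 29 control Avp-on cells held them in 19, 19 and 7 cells, and control cells without Avp in 18.8%, 5.68% and 2.11%. Among the 5 Avp-on cells of tetOP2 and gg8-tTA, which the fit left out, the counts were 1, 2 and 0. Avp-on cells were also less often Cartpt-on than the other cells (34.1% against 74.6%). In the Cartpt comparison below, Ptprn, Syt4 and Pcsk1n were lower and Rab3b higher in Cartpt-on cells, while Scg2, Ptprn2, Pcsk2, Chgb and Chga were not called. Whether these genes went with Avp, with the absence of Cartpt or with the chosen receptor was not tested. Among other neuropeptide genes only Nppc, the precursor of C-type natriuretic peptide, passed in the Avp-on comparison (3.60 ± 0.50). In the control Avp-on cells its UMIs came from 1 cell with 14. Of the position markers, Nrp2 was higher (1.37 ± 0.19) as 1 of 5 ventral genes, and Nqo1 and Robo2 (−1.45 ± 0.31) were lower as 2 of 4 dorsal genes. Oxt, the neighbour of Avp in the genome, was found in 0 of the 44 Avp-on cells.

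The genes with the smallest adjusted p and the same sign in all 3 libraries were Fxyd2, Ppa1, Rprm, Trp53i11 and Resp18 on the higher side. Ppa1, an inorganic pyrophosphatase, had a log2 fold change of 3.14 ± 0.15 (SE, edgeR adjusted p = 2.03e-95), and Rprm, the cell-cycle gene reprimo, one of 3.61 ± 0.17 (adjusted p = 4.68e-95). Fxyd2, a subunit that modulates the sodium pump, had the largest of these at 6.73 ± 0.20, although it was detected in 8 of 29 control Avp-on cells. Between libraries its level in Avp-on cells ran from 124 to 5515 CPM, and that of Resp18 from 70.2 to 608. The fit had 3 libraries and 2 residual degrees of freedom and drew its dispersion from many genes. Its SEs and adjusted p-values therefore need not cover such a spread of 1 gene between libraries. On the lower side were Nqo1, Calb2, Dcdc2a, Tmsb4x and Hist2h2be. Nqo1, a dorsal marker, was at 0 in the 29 control Avp-on cells and detected in 36.5% of 2131 control cells without Avp. Tmsb4x, thymosin beta 4, had a median of 26 UMIs of 5000 in control Avp-on cells, 33 in swap Avp-on cells and 87 in control cells without Avp.

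The same genes were then counted in the swap Avp-on cells. Rprm was detected in 10 of 10 swap, 23 of 29 control and 4 of 5 other Avp-on cells, against 5.51% of swap and 6.52% of control cells without Avp. Ppa1 had a median of 60.5 UMIs of 5000 in the swap Avp-on cells and 5 in the control ones, against 3 and 2 in cells without Avp. Cells that had chosen one of the 5 receptors but held no Avp UMI, 13 in all, also had Rprm in 12 cells and a Tmsb4x median of 28. Calb2, the calcium-binding protein calretinin, was found in 7 of the 13 and in 4 of 29 control Avp-on cells, and Fxyd2 in none of the 13. These counts are small and were not tested. Markers of non-neuronal cell types were at or near 0 in the Avp-on cells: the 6 macrophage markers were absent, and the summed sustentacular markers reached 4 UMIs at most. The 8 mature OSN markers summed to a median of 22.5 UMIs against 24 in cells without Avp. The 8 immature OSN markers were not near 0 and summed to a median of 6.5 UMIs against 8 in cells without Avp.

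Cartpt-on cells, on for Cartpt alone, were set against the 1257 cells on for none of the 3 genes in all 6 libraries (3576 against 1257 cells). edgeR's quasi-likelihood test with library as a block called 408 of 11860 genes (3.44%), 113 higher (0.953%) and 295 lower (2.49%). Position markers were among the genes called. All 5 ventral markers were lower, among them Nfia, at −2.17 ± 0.09 (SE), Nrp2, at −1.55 ± 0.06, and Nfib, at −1.39 ± 0.05, and 3 of 4 dorsal markers were higher, Nqo1 at 4.73 ± 0.31, Acsm4 at 3.85 ± 0.23 and Robo2 at 1.14 ± 0.07. Nfia and Nfib are nuclear factor I proteins, and Nrp2 and Robo2 are axon guidance receptors. Cartpt was chosen with its dorsal bias known, so that these calls are no independent evidence of it. The other genes named by the smallest adjusted p were 2810001G20Rik, Slc16a11 and Nob1, higher by 1.01, 0.64 and 1.97, and Cidea and Ifi27, at −1.81 and −1.86 on the log2 scale.

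Of 23 genes of the secretory list tested, 4 were lower in Cartpt-on cells, Ptprn at −1.49 ± 0.15, Pam at −0.90 ± 0.26, Syt4 at −0.78 ± 0.09 and Pcsk1n at −0.59 ± 0.06, and 1 was higher, Rab3b at 0.59 ± 0.06 (SE, edgeR adjusted p at or below 0.04). The fold threshold alone was missed by Cpe at −0.26 ± 0.04 (edgeR adjusted p = 0.00175), Pcsk6 at 0.54 ± 0.13 (edgeR adjusted p = 0.0191) and Chga at 0.19 ± 0.05 (edgeR adjusted p = 0.0274). The median log2 fold change of the list was −0.11 and that of all genes 0.00. None of 6 tested genes of the neuropeptide list was called.

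By edgeR, Gap43, Tmsb10 and Stmn2 were lower and Cnga4 higher in Pth2-on cells in both of the following comparisons, which share cells. On for Pth2 alone, 26 cells of swap 2 and control 2 could be set against none-on cells, where edgeR called 27 of 9241 genes (0.292%), 5 higher (0.0541%) and 22 lower (0.238%). DESeq2 called 1 gene there, as higher, and 0 lower, so that the lower genes of this comparison were called by edgeR only. This fit had 1 residual degree of freedom. Taking all 304 Pth2-on cells of 6 libraries against 3422 cells with no Pth2 UMI of 5000, a comparison added after seeing the data, edgeR called 493 of 11150 genes (4.42%), 125 higher (1.12%) and 368 lower (3.3%). Lower in both were Gap43, a growth-cone protein (−2.38 ± 0.34 alone and −2.09 ± 0.13 in all), Tmsb10 (−1.14 ± 0.16 and −1.36 ± 0.06) and Stmn2 (−1.06 ± 0.16 and −1.39 ± 0.08), with Stmn1 (−1.44 ± 0.09) and Ly6h (−1.74 ± 0.11) in the larger comparison. Higher were Cnga4, a subunit of the cyclic nucleotide-gated channel (0.70 ± 0.17 and 0.92 ± 0.06), and Adcy3, the adenylyl cyclase of OSNs (0.88 ± 0.06), with Stmn4 (0.98 ± 0.06), the potassium channel gene Kcns3 (1.50 ± 0.10) and Cmip (0.66 ± 0.05). In the comparison of 26 cells Gm6878 (0.95 ± 0.24) and the glutamate transporter gene Slc1a2 (0.75 ± 0.19) were higher and Calb2 (−0.84 ± 0.15) and Gucy1b2 (−3.52 ± 0.68) lower. Between swap 2 and control 2 Calb2 ran from 26.5 to 948 CPM in those Pth2-on cells, against 422 to 964 in none-on cells. Its SE need not cover such a spread. Gap43 also enters the gate for mature OSNs, so that these cells are compared within the range of Gap43 that the gate allows. In the larger comparison 3 of 22 secretory genes were called lower and none higher. Lower were Scg2 (−3.64 ± 0.64), Ptprn2 (−2.61 ± 0.78) and Pcsk1n (−0.92 ± 0.13). Chga at 0.37 ± 0.05 (edgeR adjusted p = 1.99e-08) and Furin at 0.45 ± 0.15 (edgeR adjusted p = 0.0389) were higher but stayed under the fold threshold. Cpe at −0.48 ± 0.06 (edgeR adjusted p = 6.31e-09), Scg3 at −0.47 ± 0.10 (edgeR adjusted p = 0.000556) and Pcsk2 at −0.54 ± 0.17 (edgeR adjusted p = 0.0304) were lower and stayed under it too. Of the position markers 4 of 5 ventral genes were lower and 2 of 4 dorsal genes higher in the larger comparison. The dorsal gene Nqo1 was 0.58 ± 0.07 there, without the same sign in every library, but −9.05 ± 2.19 in the 26 cells on for Pth2 alone. Both classes of that smaller comparison left out Cartpt-on cells, and DESeq2 called 0 of its 4 dorsal genes. The direction of Nqo1 by edgeR thus depended on which cells were compared.

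Other neuropeptide genes were mostly undetected. Of 50 other precursor genes, none was detected in 20% of mature OSNs of every library, 3 reached 1% in every library and 20 were at 0 in all. Nucb2, the nesfatin precursor, was detected in 18.3% to 25.6% of cells and Nmb in 1.37% to 3.35%, both below sustentacular cells, which had 61.6% to 74.2% and 8.4% to 20.2%, and they were not read as expression of mature OSNs. Pomc was detected in 5.82% to 10.1% against 0.615% to 1.33% in sustentacular cells. Of 24 genes of the secretory list, 9 were detected in at least 20% of mature OSNs of every library and 1 in sustentacular cells. Chga was found in 98.9% to 99.9% of mature OSNs (1.23% to 14.6% of sustentacular cells), Cpe, which trims the cut peptides, in 80.4% to 95.5% (1.84% to 7.82%), and Scg5 in 74.8% to 89% (0.816% to 4.56%). The convertases Pcsk2 and Pcsk1, which cut precursors before Cpe acts, were detected in 10.9% to 14.9% (0% to 0.615%) and 0.536% to 3.21% (0% to 0.442%) of mature OSNs. Pam, which amidates peptides such as vasopressin, was at 0.966% to 3.17%, close to its 0.923% to 2.46% in sustentacular cells. Of 6 genes for receptors of these peptides none reached 1% in every library, with Pth1r highest at 0.14% to 1.51%, and the vasopressin receptor genes Avpr1a, Avpr1b and Avpr2 had no UMI in any thinned mature OSN.

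Across the 54 receptors with at least 8 cells in control 1, control 2 and gg8-tTA (556 cells), the mean level per receptor of each gene was ranked against 9693 other genes. The genes most like Avp were Etv4 (Spearman's rho 0.74), Dgkg (0.70) and Ubl3 (0.69). Those most like Cartpt were Slc16a11 (0.77), Calm2 (0.76) and Acsm4 (0.75), and the most opposite was Sept3 (−0.88). Those most like Pth2 were Kcns3 (0.62), Sms (0.59) and Gnb1 (0.58). Between the 3 genes rho was −0.48 for Avp and Cartpt, −0.20 for Avp and Pth2 and 0.12 for Cartpt and Pth2. Cell by cell, Etv4 was detected in 9 of 29 control and 4 of 10 swap Avp-on cells. In cells without Avp the share was 1.27% in control and 1.05% in swap. Among cells without Avp that had chosen the receptors with the highest Avp-on share, 1 of 13 held Etv4. Etv4 was picked from control 1, control 2 and gg8-tTA, so that its presence in control Avp-on cells is no separate evidence. The values of rho describe receptors that share libraries and positions, and neither they nor the cell counts were tested.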

How the data were processed

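The study prepared papain-dissociated olfactory epithelium with the 10x Genomics v3 kit and aligned reads with Cell Ranger, introns included. Per the labels the build was mm10. The deposited tables hold whole UMI counts per gene and cell, which the authors did not normalise. Here, cells needed 1000 UMIs and 500 genes to be kept, and simulated-doublet neighbours were scored so that the top 0.8% per 1000 cells were removed. Mature OSNs were gated on Omp, Gap43 and Cyp2g1, and cells thinned to 5000 UMIs. The chosen OR was the one with most UMIs, ties unassigned. Sums per library were tested in R 4.3.3 with edgeR 4.0.16 (quasi-likelihood, TMM, low-count filter) and DESeq2 1.42.0 as the alternative, with calls at an adjusted p under 0.05 and past 0.58 on the log2 scale. The scripts were tested on simulated data. Shares were compared by exact permutation. Named genes were the 5 per direction with the smallest adjusted p and 1 sign in every library, the 3 most similar genes per member, the 5 receptors with the highest on share, and list genes called or widely detected. Members and lists were chosen with earlier results of these data known. Part of the genotype labels is not reported here.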

Additional observations from a re-analysis of the deposited data

How the results depend on the processing

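Few libraries limit every comparison, and counts of 1 to 21 Avp-on cells per library limit those on Avp. For swap against control, leaving out 1 library at a time moved the Avp-on difference between −1.12 and −0.131 percentage points, the Cartpt-on difference between −1.84 and 3.65 and the Pth2-on difference between −4.16 and −2.05. The Cartpt-on difference turned to −1.84 without swap 1. The log2 fold change of Avp ran from −3.45 to −1.17, that of Cartpt from −0.22 to 0.26 and that of Pth2 from −1.07 to −0.07, and Cartpt turned to −0.22 without swap 1 and to −0.09 without control 2. The Avp difference of observed and expected shares ran from −2.55 to 0.42 and turned to 0.42 without control 2, where the same range was −14.3 to −2.91 for Cartpt and −7.71 to −4.33 for Pth2. For mature minus immature OSNs the leave-out differences ran from 0.567 to 0.891 points for Avp, 59 to 61.8 for Cartpt and 5.18 to 6.21 for Pth2. Over the other settings these ran from 0.44 to 1.39 points for Avp (1.39 with a single UMI counted as on), 34 to 63.2 for Cartpt and 2.21 to 30.5 for Pth2, so that the sizes depended on threshold and depth.

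The number of genes called between swap and control was 0 by edgeR, 191 by DESeq2, 3 with no filter beyond 1 UMI and 190 to 232 with 1 library left out, where the lone library of its group is assumed to vary like the others. No library block left 58 genes for Cartpt, 1 for Pth2 alone, 124 for Avp and 37 for all Pth2-on cells. DESeq2 left 1 gene for Pth2 alone, 246 for Avp (173 higher and 73 lower) and 270 for all Pth2-on cells (113 higher and 157 lower, against 125 and 368). Leave-out counts were 308 to 414 for Cartpt, 232 to 426 for Avp and 386 to 461 for all Pth2-on cells. The causes were not tested.

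Swap and control share the numbers 1 and 2, with no sign in the labels that a number marks a shared litter or day. Deviations of swap 1 and control 1 from their group means correlated at 0.339 over 12522 genes. With the replicate block the log2 fold changes were −2.24 for Avp, 0.02 for Cartpt and −0.56 for Pth2, with 0 genes called at an adjusted p below 0.05 and 804 at an unadjusted one. Setting the same reference for libraries of 1 number, chosen after seeing the data, kept the direction of the observed and expected comparisons. A cut of 10 UMIs gave no value for Pth2, and the Avp-alone comparison and the Pth2-alone comparison without a second receptor could not be fitted. Under the remaining settings the directions were kept, but sizes moved: the difference between swap and control ran from −0.896 to −0.385 points for the Avp-on share, 0.441 to 2.18 for Cartpt and −7.65 to −1.18 for Pth2.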
